A study of Mus musculus with 12 samples.

Results

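CD73+ newly generated regulatory T cells (Treg) and newly generated conventional T cells (Tconv) were compared by RNA sequencing of sorted mouse thymocytes. The members are 6 libraries of 12 in all, chosen by their labelled cell type: 3 libraries of CD73+ newly generated Treg and 3 of newly generated Tconv. All mice carried the labelled genotype C57BL/6 and received tamoxifen at 10 µg per g of body weight by intraperitoneal injection, and their thymus was taken 7 days later. CD73+ newly generated Treg were sorted as CD4+, tdTomato+, GFP+ and CD73+. A second Treg group, CD73- newly generated Treg, was CD4+, tdTomato+ and GFP+ but CD73-, and bulk tdTomato- Treg were CD4+ and GFP+ without division by CD73. Newly generated Tconv were CD4+ and tdTomato+ but GFP- and CD73-. CD73+ newly generated Treg and Tconv thus differ in both the GFP and the CD73 gate, and these cannot be told apart in their comparison. Each of these groups has 3 libraries, named by the letters A, B and D. The driver of the tamoxifen-dependent label, the structure of the GFP reporter and the age of the mice are not given in the sources used here, and the labels do not say whether the replicates were separate animals, so each p-value reflects only how far these libraries spread, part of which may be technical.

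Treg are CD4 T cells that restrain immune responses and depend on the transcription factor Foxp3. They arise in the thymus from CD4 thymocytes that receive a strong signal through the T cell receptor (TCR), costimulation through CD28, TNF receptor family signals that act through NF-kB, and then interleukin-2 (IL-2) acting through STAT5. Tconv come from the same CD4 thymocytes without Foxp3. CD73, encoded by Nt5e, is a surface enzyme that turns adenosine monophosphate into adenosine. The tdTomato label marks the cells called newly generated here, and unlabelled Treg may include older or returning Treg that also reside in the thymus.

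The values are log2 CPM, read counts per gene scaled to a common library size, and levels below are on that scale after quantile normalisation of the 12 libraries together. The authors deposited the Treg and the Tconv of this comparison in 2 tables that were filtered and scaled separately, so the difference between them rests on this joint normalisation, and table and group cannot be told apart. Of 13207 genes, 12410 had values in all 12 libraries and 11139 of these passed a filter that asked for a log2 CPM of 0 or more in 3 or more libraries. Effective library sizes, read from the lowest values, were 15455000 to 16336200 counts in CD73+ newly generated Treg and 17508700 to 21406800 in Tconv, within a range of 11004300 to 21406800 over all 12 libraries. Reads assigned to Lars2, a mitochondrial leucyl-tRNA synthetase gene, held 28.5% to 30.2% of the CPM in CD73+ newly generated Treg and 16.1% to 27.4% in Tconv. Across genes, Spearman's rho was 0.992 to 0.995 among the CD73+ newly generated Treg libraries and 0.952 to 0.958 between them and Tconv, and genes are not independent replicates.

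Nt5e encodes the sorted CD73, and GFP is taken here as a mark of Foxp3, though its reporter is not described. Their differences followed the gates and are no finding. Foxp3 (ENSMUSG00000039521.13, chromosome X, 7573644 to 7595245 on the plus strand of GRCm38) had a level of 9.21, 9.29 and 9.10 in CD73+ newly generated Treg and 1.12, 0.69 and −0.45 in Tconv, where it rested on about 32, 28 and 10 counts back-calculated from the deposited values. Nt5e (chromosome 9, 88327197 to 88372092) had a level of 7.20, 7.47 and 7.21 in CD73+ newly generated Treg and 4.0, 3.97 and 3.70 in Tconv, which were sorted as CD73-. Both genes were thus far apart between the groups, in the direction of the gates. Itgae, the integrin chain CD103, was not used in the sort and marks part of the Treg. Its level was 4.64, 4.49 and 4.41 in CD73+ newly generated Treg and 1.05, 1.03 and 1.0 in Tconv (log2 fold change of 3.48, SE 0.10, adjusted p = 3.5e-14). All groups were sorted as CD4+, yet Cd4 was lower in CD73+ newly generated Treg, at 8.45, 8.36 and 8.43, against 9.24, 9.39 and 9.21 in Tconv (log2 fold change of −0.86, SE 0.05, adjusted p = 1.7e-10).

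All 20 Treg signature genes, the inducible IL-2 receptor chains and 16 of 27 NF-kB genes were higher in CD73+ newly generated Treg than in Tconv. Of the cell cycle genes 25 of 28 were lower, as were 16 of 19 naive Tconv genes and 18 of 27 genes of TCR signalling. At an adjusted p under 0.05, 5015 of 11139 genes passed, which is 45%: 2324 (20.9%) were higher and 2691 (24.2%) lower in CD73+ newly generated Treg. With a log2 fold change of at least 1 as well, 1229 genes (11%) passed, of which 692 (6.21%) were higher and 537 (4.82%) lower. The 3 libraries of each group did not overlap for 6054 genes (54.3%). Counts of list members below are to be read against these shares, and the median log2 fold change of all genes tested was −0.03. The gene lists were chosen with earlier results of these data known, so their counts are descriptions and no independent test. In these bulk libraries, fewer cells of a type and less RNA per cell cannot be told apart.

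**Figure D1:**
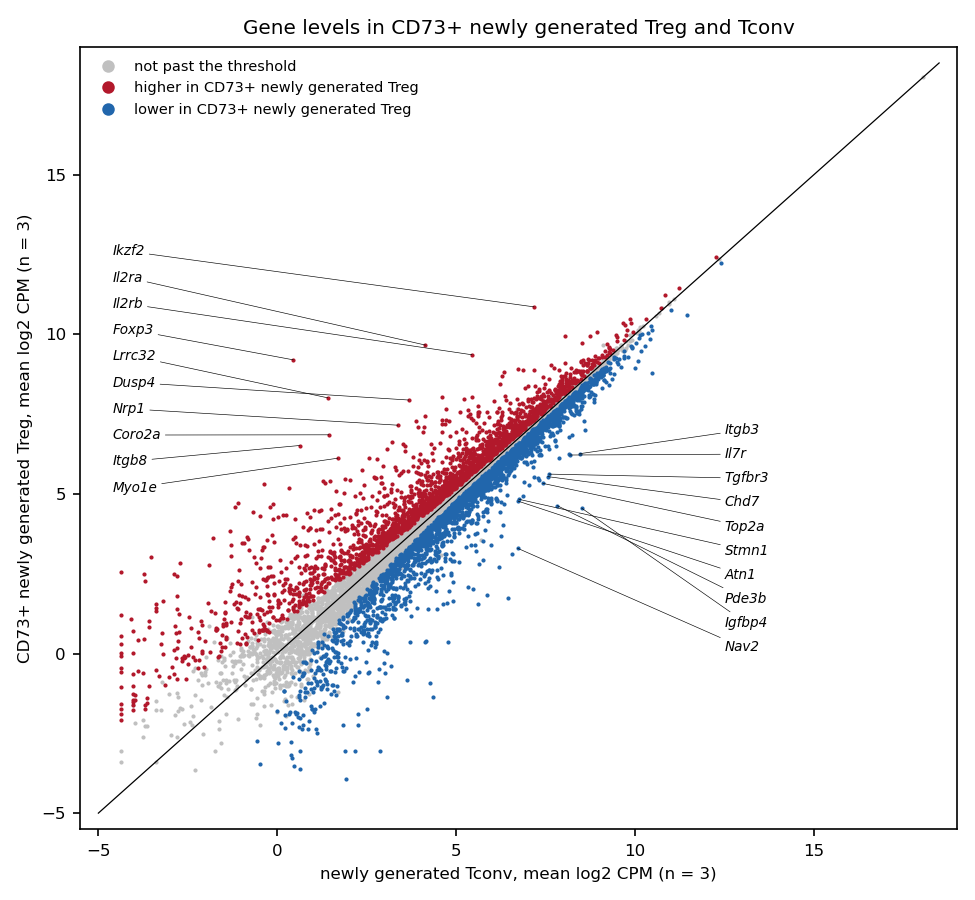
Mean log2 CPM of each gene in CD73+ newly generated Treg (y axis) and in newly generated Tconv (x axis), 3 libraries each, over 11139 genes. The line marks equal levels, and coloured points passed an adjusted p of 0.05. Named are the 10 highest and 10 lowest of the abundant genes ranked by fold in the text. Foxp3, Lrrc32, Itgb8 and Il2ra lie far above the line, with log2 fold changes of 8.75, 6.60, 5.89 and 5.52, and Igfbp4, Nav2 and Pde3b far below it, with −3.96, −3.42 and −3.20.

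Genes ranked by fold had an adjusted p under 0.05, no overlap between the groups and a mean above the median of the genes tested, here called abundant. Predicted genes, pseudogenes, and T cell receptor and immunoglobulin segments were left out. The 10 highest fold changes among the ranked genes were those of Foxp3, Lrrc32, Itgb8, Il2ra, Coro2a, Myo1e, Dusp4, Il2rb, Nrp1 and Ikzf2. Lrrc32, which encodes GARP, the receptor that docks latent TGF-beta (chromosome 7, 98489283 to 98502181, plus strand), had a level of 8.08, 8.11 and 7.83 in CD73+ newly generated Treg and 1.29, 1.40 and 1.55 in Tconv. The groups were 96.7-fold apart (log2 fold change of 6.60, SE 0.10, adjusted p = 2.5e-17). Il2ra, the high-affinity IL-2 receptor chain CD25 (chromosome 2, 11642807 to 11693193), had a level of 9.56, 9.85 and 9.57 against 4.35, 4.05 and 4.04 in Tconv, a 45.8-fold difference (log2 fold change of 5.52, SE 0.09, adjusted p = 3.7e-17). Coro2a, a coronin family protein (chromosome 4, 46536937 to 46602202), was 42.6-fold higher in CD73+ newly generated Treg, at 6.83, 7.14 and 6.59, against 1.49, 1.38 and 1.44 in Tconv (log2 fold change of 5.41, SE 0.12, adjusted p = 2.1e-15). That the libraries of these genes did not overlap between the groups follows from the rule of the ranking. The motor protein gene Myo1e (log2 fold change of 4.43, SE 0.09), the MAP kinase phosphatase gene Dusp4 (4.27, SE 0.16), Nrp1 (3.78, SE 0.11), which encodes neuropilin-1, a surface marker of thymic Treg, and Ikzf2 (3.68, SE 0.07), which encodes the transcription factor Helios, were higher as well, with adjusted p from 1.3e-12 to 1.6e-16. Ikzf2 was not restricted to the Treg: its level was 10.72, 10.97 and 10.89 in CD73+ newly generated Treg and still 7.02, 7.32 and 7.19 in Tconv.

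Ranked in the same way, the lowest fold changes among abundant genes belonged to a mixed set. Igfbp4, an insulin-like growth factor binding protein gene known from naive T cells (chromosome 11, 99041244 to 99054392), had a level of 4.49, 4.62 and 4.55 in CD73+ newly generated Treg and 8.67, 8.34 and 8.52 in Tconv, 15.5-fold lower in the Treg (log2 fold change of −3.96, SE 0.09, adjusted p = 2.1e-15). Pde3b, a cyclic nucleotide phosphodiesterase gene that Foxp3 is known to repress (chromosome 7, 114415281 to 114539251), was 9.18-fold lower, at 4.82, 4.16 and 4.91, against 7.86, 7.84 and 7.79 in Tconv (log2 fold change of −3.20, SE 0.15, adjusted p = 2.8e-11). Itgb3, the integrin beta 3 chain (chromosome 11, 104608000 to 104670476), was 4.57-fold lower, at 6.23, 6.18 and 6.36, against 8.48, 8.40 and 8.46 in Tconv (log2 fold change of −2.19, SE 0.06, adjusted p = 1.4e-14). Genes with overlap were left out of the ranking, so the lack of overlap in these 3 genes follows from the choice. The neuron navigator gene Nav2 (−3.42, SE 0.23), the chromatin remodeller Chd7 (−2.02, SE 0.07), the TGF-beta co-receptor Tgfbr3 (−1.98, SE 0.10), the transcriptional co-regulator Atn1 (−1.96, SE 0.18), the interleukin-7 receptor Il7r (−1.96, SE 0.10) and the proliferation genes Top2a and Stmn1 completed the 10 lowest log2 fold changes.

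**Figure D2:**
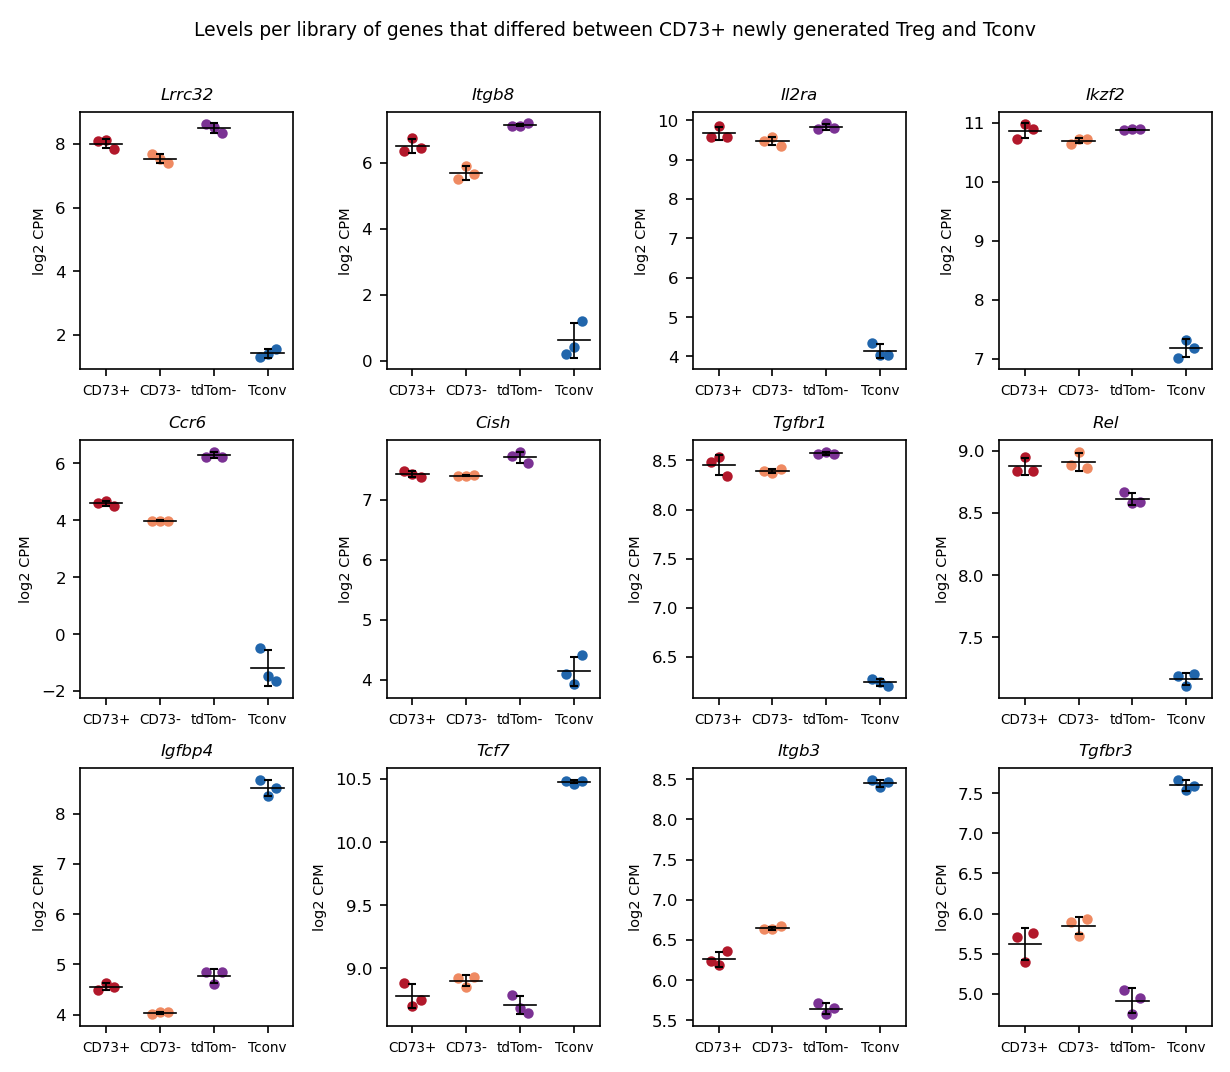
Log2 CPM per library (points) of 12 genes in CD73+ newly generated Treg, CD73- newly generated Treg, tdTomato- Treg and newly generated Tconv, with the mean and SD of 3 libraries; each y axis has its own range. Lrrc32, Itgb8, Il2ra, Ikzf2, Ccr6, Cish, Tgfbr1 and Rel were higher in all CD73+ newly generated Treg libraries than in all Tconv libraries, and Igfbp4, Tcf7, Itgb3 and Tgfbr3 were lower in all of them.

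**Figure D3:**
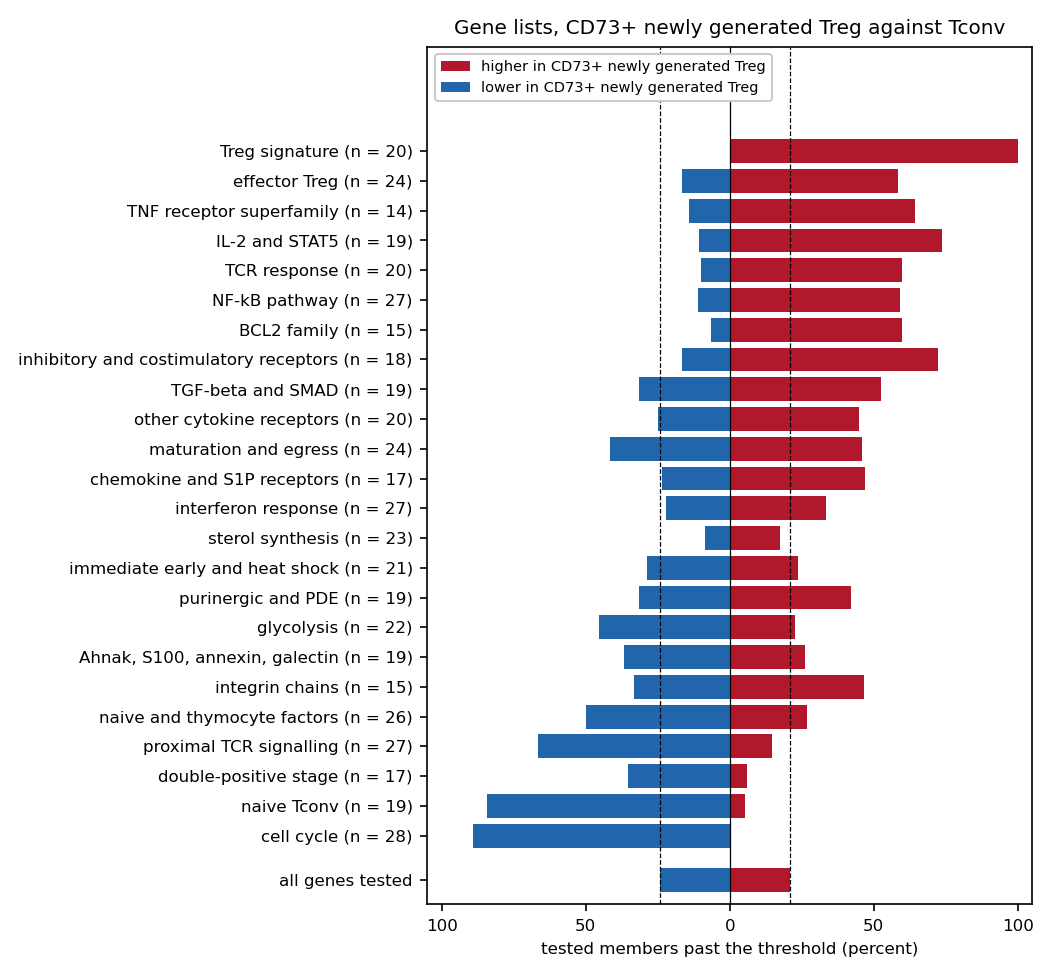
Percent of tested members of each gene list that were higher (to the right) or lower (to the left) in CD73+ newly generated Treg than in newly generated Tconv at an adjusted p under 0.05, ordered by the median log2 fold change of the list; dashed lines and the lowest bar give all 11139 genes tested, of which 20.9% were higher and 24.2% lower. All 20 Treg signature genes were higher, and 25 of 28 cell cycle genes and 16 of 19 naive Tconv genes were lower.

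The Treg signature list held 20 genes, all of which were tested and all of which were higher in CD73+ newly generated Treg by a log2 fold change of at least 1. Their median log2 fold change was 3.68, against −0.03 for all genes. Nt5e in this list was set by the CD73 gate, and Foxp3 is taken as set by the GFP gate. The smallest log2 fold changes in the list were those of Izumo1r, the folate receptor 4 gene, at 1.66 and Capg, an actin-capping protein gene, at 1.73, both given here after their values were seen. Ctla4, the inhibitory receptor through which Treg strip costimulatory ligands from other cells, had a level of 8.15, 7.96 and 8.04 in CD73+ newly generated Treg and 4.86, 4.31 and 4.64 in Tconv (log2 fold change of 3.45, SE 0.12, adjusted p = 2.9e-13).

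IL-2 signalling genes split between receptor chains. Il2ra and Il2rb, the inducible chains of the receptor, were higher in CD73+ newly generated Treg. Il2rb had a level of 9.36, 9.47 and 9.24 there and 5.49, 5.32 and 5.51 in Tconv, a 15.1-fold difference (log2 fold change of 3.92, SE 0.06, adjusted p = 5.1e-17). Il2rg, the common gamma chain shared by several cytokine receptors, was lower, at 8.28, 8.13 and 8.22, against 8.55, 8.58 and 8.53 in Tconv (log2 fold change of −0.34, SE 0.05, adjusted p = 1.1e-05). Cish, a STAT5 target that encodes a cytokine signalling inhibitor, had a level of 7.47, 7.43 and 7.38 in CD73+ newly generated Treg and 4.09, 3.92 and 4.40 in Tconv (log2 fold change of 3.29, SE 0.09, adjusted p = 1.9e-14). Of the 19 tested members of 20 on the IL-2 and STAT5 list, 14 were higher, 2 were lower and 3 did not pass, with a median log2 fold change of 0.73. The other lower member was Pim2, a survival kinase gene (log2 fold change of −1.16, SE 0.09, adjusted p = 1.4e-08). The 3 that did not pass were Jak1 (−0.07, SE 0.04), Osm (−0.07, SE 0.11) and Ccnd2 (0.10, SE 0.05). Jak1 passed on the deposited values (−0.12, adjusted p = 0.033). Ccnd2 passed without Tconv library B (0.16, adjusted p = 0.021) and with the replicate letters as a block in the fit (0.10, adjusted p = 0.013).

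Other cytokine receptors moved in both directions: of 20 tested members of 22, 9 were higher, 5 lower and 6 did not pass, with a median log2 fold change of 0.24. Ifngr1, the ligand-binding chain for interferon gamma, had a level of 7.28, 7.22 and 7.14 in CD73+ newly generated Treg and 5.91, 5.70 and 5.71 in Tconv (log2 fold change of 1.44, SE 0.07, adjusted p = 4.0e-11). Il10rb, a chain of the interleukin-10 receptor (1.25, SE 0.09), and Il6st, the gp130 signalling chain (0.47, SE 0.05), were also higher. Il7r, the receptor for the survival cytokine interleukin-7, had a level of 6.08, 6.45 and 6.12 in CD73+ newly generated Treg and 8.12, 8.26 and 8.15 in Tconv (log2 fold change of −1.96, SE 0.10, adjusted p = 6.9e-11). The ligand-binding chains Il10ra (−0.89, SE 0.12) and Il6ra (−0.62, SE 0.06) were lower too, while the other chains of their receptors, Il10rb and Il6st, were higher.

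TNF receptor superfamily genes were mostly higher: of 14 tested members of 17, 9 were higher, 2 lower and 3 did not pass, with a median log2 fold change of 0.86. Tnfrsf4, which encodes OX40, had a level of 7.10, 7.24 and 6.99 in CD73+ newly generated Treg and 3.90, 4.03 and 3.91 in Tconv (log2 fold change of 3.16, SE 0.09, adjusted p = 1.9e-14). Tnfrsf18, which encodes GITR, had a level of 7.31, 7.10 and 7.14 in CD73+ newly generated Treg and 4.72, 4.43 and 4.63 in Tconv (2.59, SE 0.08). Tnfrsf9, which encodes 4-1BB, had a level of 7.30, 7.27 and 7.26 in CD73+ newly generated Treg and 4.73, 4.86 and 4.80 in Tconv (2.48, SE 0.06). OX40 and GITR are costimulatory receptors whose signals are known to aid Treg precursors in the thymus. Tnfrsf1a, a TNF receptor with a death domain, was lower (−0.95, SE 0.14, adjusted p = 2.8e-05). Tnfrsf10b, the mouse TRAIL receptor, was lower as well (−0.90, SE 0.28, adjusted p = 0.014), but did not pass without Tconv library D (−0.76, adjusted p = 0.061). Tnfrsf14 (−0.17, SE 0.10), Tnfrsf26 (−0.13, SE 0.09) and Tnfrsf21 (−0.63, SE 0.71) did not pass.

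NF-kB genes followed the same direction in most members. Of 27 members, all tested, 16 were higher, 3 lower and 8 did not pass, and the median log2 fold change was 0.49. Rel, the c-Rel subunit that Foxp3 induction is known to need, had a level of 8.84, 8.95 and 8.84 in CD73+ newly generated Treg and 7.19, 7.11 and 7.20 in Tconv (log2 fold change of 1.71, SE 0.05, adjusted p = 4.2e-14). Nfkb2, the p100 precursor of the non-canonical pathway, was higher at 6.56, 6.54 and 6.54, against 5.25, 5.18 and 5.31 in Tconv (1.30, SE 0.07), and Nfkb1, the p105 precursor, was higher by 0.74 (SE 0.04). Among the lower members were Malt1 (−0.90, SE 0.05, adjusted p = 7.4e-10), a signalling protein that carries the TCR signal to NF-kB, and Cflar (−0.18, SE 0.05, adjusted p = 0.0032), an inhibitor of caspase-8. Nfkbia, the IkBα gene that NF-kB itself induces and that is named here after its values were seen, had a level of 7.62, 7.34 and 7.49 in CD73+ newly generated Treg and 6.20, 6.27 and 6.41 in Tconv (1.19, SE 0.08).

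TCR target genes were higher more often than lower. Of 20 members, all tested, 12 were higher, 2 lower and 6 did not pass, with a median log2 fold change of 0.67. Nr4a3, an orphan nuclear receptor gene induced by TCR signals, had a level of 7.88, 7.95 and 7.98 in CD73+ newly generated Treg and 6.27, 6.51 and 6.42 in Tconv (log2 fold change of 1.54, SE 0.06, adjusted p = 1.6e-12). Cd200, an inhibitory surface ligand, was higher at 6.43, 6.44 and 6.49, against 4.43, 4.31 and 4.41 in Tconv (2.07, SE 0.06). The EGR genes, which are also TCR targets, did not follow: Egr2 (0.01) and Egr3 (0.12), named after their values were seen, did not pass. Nab2, an EGR corepressor, was lower (−0.49, SE 0.08, adjusted p = 0.00013). Egr1 was lower by a small amount (−0.24, SE 0.07, adjusted p = 0.017), a call lost without CD73+ newly generated Treg library A (−0.21, adjusted p = 0.060), without Tconv library B (−0.21, adjusted p = 0.053) and without Tconv library D (−0.22, adjusted p = 0.051), and also with median centring (adjusted p = 0.058), on back-calculated counts (0.063) and without the intensity trend (0.053).

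The components of the TCR signalling machinery itself were mostly lower. Of 27 members, all tested, 18 were lower, 4 higher (2 on the deposited values) and 5 did not pass, with a median log2 fold change of −0.32, and none passed a log2 fold change of 1 in the lower direction. Pag1, an adaptor that recruits the inhibitory kinase Csk, had a level of 7.50, 7.51 and 7.55 in CD73+ newly generated Treg and 8.47, 8.37 and 8.35 in Tconv (log2 fold change of −0.88, SE 0.05, adjusted p = 3.0e-10). Themis, an adaptor of thymic selection, was lower at 7.53, 7.33 and 7.52, against 8.30, 8.30 and 8.27 in Tconv (−0.83, SE 0.06). These small differences were without overlap between the groups. Cblb, a ubiquitin ligase that dampens TCR signals, was the one member that was higher by a log2 fold change near 1 (1.0, SE 0.08, adjusted p = 2.3e-08), followed by Dgkz, a diacylglycerol kinase gene (0.29, SE 0.07, adjusted p = 0.0034). Ptprc, which encodes CD45, was higher by 0.22 (SE 0.03), but its direction turned to −0.03 on the deposited values, −0.02 with median centring and −0.00895 on back-calculated counts, so no direction is given.

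Inhibitory and costimulatory receptors were mostly higher: of 18 tested members of 20, 13 were higher, 3 lower and 2 did not pass, with a median log2 fold change of 0.39. Besides Ctla4 and Cd200, Cd101, an inhibitory immunoglobulin family receptor, had a level of 5.17, 5.15 and 5.17 in CD73+ newly generated Treg and 3.38, 3.13 and 3.03 in Tconv (log2 fold change of 1.98, SE 0.09, adjusted p = 2.4e-11). The lower members were Cd28 (−0.40, SE 0.06), the main costimulatory receptor, Vsir (−0.31, SE 0.05), which encodes the inhibitory receptor VISTA, and Icos (−0.24, SE 0.05, adjusted p = 0.0014), a costimulatory receptor of activated T cells and effector Treg. Cd2 (0.17, SE 0.07) and Btla (−0.01, SE 0.07) did not pass. Cd2 passed on the deposited values (0.18, adjusted p = 0.039), with median centring (0.19, 0.035), on back-calculated counts (0.20, 0.023) and without Tconv library B (0.27, 0.00037). It also passed with the replicate letters as a block (0.17, 0.018).

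TGF-beta pathway genes differed in both directions. Of 19 tested members of 22, 10 were higher, 6 lower and 3 did not pass, with a median log2 fold change of 0.26. Besides Lrrc32, Itgb8 was higher, the integrin chain that with alpha V frees active TGF-beta from its latent form (chromosome 12, 119158022 to 119238802, minus strand). It had a level of 6.35, 6.74 and 6.45 in CD73+ newly generated Treg and 0.22, 0.43 and 1.22 in Tconv, a 59.4-fold difference on about 16, 23 and 36 counts in Tconv (log2 fold change of 5.89, SE 0.18, adjusted p = 1.2e-13). The receptor chains differed in direction. Tgfbr1 had a level of 8.48, 8.53 and 8.34 in CD73+ newly generated Treg and 6.28, 6.24 and 6.20 in Tconv (2.21, SE 0.05, adjusted p = 2.1e-15). Tgfbr2, its partner chain, had a level of 8.08, 7.89 and 7.97 in CD73+ newly generated Treg and 8.97, 8.74 and 8.86 in Tconv (−0.87, SE 0.06), and the co-receptor Tgfbr3 had 5.71, 5.39 and 5.76 against 7.67, 7.54 and 7.59 in Tconv. Smurf2, a ubiquitin ligase of the pathway, was lower (−0.80, SE 0.06), and Smurf1 (−0.12, SE 0.08), Tgfb3 (−0.71, SE 0.50) and Smad4 (−0.03, SE 0.07) did not pass.

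Among 15 tested integrin chains of 18, 7 were higher, 5 lower and 3 did not pass, with a median log2 fold change of −0.10. Without CD73+ newly generated Treg library D or without Tconv library B, 3 were lower. Apart from Itgb8 and Itgae, Itga6, the laminin-binding alpha 6 chain, was higher (0.86, SE 0.07, adjusted p = 2.7e-08). Besides Itgb3, Itgb2, the leukocyte beta 2 chain (−0.36, SE 0.04), and Itgam, a myeloid alpha chain (−1.79, SE 0.36), were lower. Itgam was low in all libraries, at 0.58, 0.64 and 0.63 in CD73+ newly generated Treg and 2.06, 2.59 and 2.56 in Tconv. Itgal (−0.10, SE 0.05), Itga5 (−0.27, SE 0.15) and Itga1 (−0.88, SE 0.66) did not pass.

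Homing receptors separated the groups gene by gene, and of 17 tested members of 21, 8 were higher, 4 lower and 5 did not pass, with a median log2 fold change of 0.15. Ccr6, the receptor for CCL20, had a level of 4.62, 4.68 and 4.51 in CD73+ newly generated Treg and −0.47, −1.47 and −1.64 in Tconv, where it rested on about 9, 5 and 4 counts (log2 fold change of 5.80, SE 0.21, adjusted p = 8.9e-13). Cxcr5, the B cell follicle receptor, had a level of 2.81, 1.87 and 2.57 in CD73+ newly generated Treg and −0.17, −0.26 and −0.08 in Tconv (2.59, SE 0.22). S1pr1, the receptor by which T cells leave the thymus, was a little higher, at 8.65, 8.68 and 8.53, against 8.36, 8.26 and 8.23 in Tconv (0.34, SE 0.06, adjusted p = 0.00022). Among the lower members, Ccr9, the receptor for the thymic chemokine CCL25, had a level of 5.25, 5.67 and 5.41 in CD73+ newly generated Treg and 7.07, 7.60 and 7.29 in Tconv (−1.88, SE 0.14, adjusted p = 8.4e-09). Ccr4, a receptor used by medullary thymocytes, had a level of 2.73, 2.98 and 2.95 in CD73+ newly generated Treg and 4.69, 5.24 and 4.87 in Tconv (−2.04, SE 0.16). Gpr183, an oxysterol receptor, was lower by 1.13 (log2 fold change of −1.13, SE 0.12). Ccr7, the receptor that guides thymocytes to the medulla, did not pass, at 8.48, 7.97 and 8.24 in CD73+ newly generated Treg and 8.32, 7.82 and 8.17 in Tconv (0.13, SE 0.14).

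Maturation and egress genes divided evenly: of 24 members, all tested, 11 were higher, 10 lower and 3 did not pass, with a median log2 fold change of 0.19. Cd44, an adhesion receptor of activated T cells, was higher (1.24, SE 0.06). H2-Q6, a nonclassical MHC class I gene, was higher by 2.94 (SE 0.13), though reads of H2-Q6 and its near-identical neighbours may have been split in counting. Ly6a, which encodes Sca-1, had a level of 1.88, 2.0 and 2.27 in CD73+ newly generated Treg and 4.19, 4.17 and 4.26 in Tconv (−2.15, SE 0.16, adjusted p = 7.5e-09). Slfn1, a quiescence-associated Schlafen gene, was lower (−0.77, SE 0.07). Klf2 (0.39, SE 0.16, adjusted p = 0.056), the factor that drives S1pr1, and Ms4a4b (0.11, SE 0.07) did not pass. Klf2 passed at 0.52 without CD73+ newly generated Treg library B (adjusted p = 0.021) or without Tconv library D (adjusted p = 0.018), and Ms4a4b passed on back-calculated counts (0.16, adjusted p = 0.042). With the replicate letters as a block in the fit both passed, Klf2 with an adjusted p of 6.2e-06 and Ms4a4b with 0.028.

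Naive Tconv genes were lower in 16 of 19 tested members, with 1 higher and 2 not past the threshold and a median log2 fold change of −0.89. Igfbp4 and Pde3b led the list by p. Cd40lg, the ligand by which helper T cells engage CD40, had a level of 3.20, 3.20 and 3.22 in CD73+ newly generated Treg and 5.36, 5.74 and 5.57 in Tconv (log2 fold change of −2.35, SE 0.15, adjusted p = 1.9e-09). Ccr7 and Ly6c2 (−0.53, SE 0.47) did not pass.

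Transcription factors of naive T cells and thymocytes were lower in 13 of 26 members, higher in 7, and not past the threshold in 6, with a median log2 fold change of −0.17. Tcf7, which encodes TCF-1, had a level of 8.88, 8.70 and 8.75 in CD73+ newly generated Treg and 10.49, 10.46 and 10.49 in Tconv (log2 fold change of −1.70, SE 0.05, adjusted p = 3.5e-14). Ikzf1, which encodes Ikaros, was lower at 9.15, 9.14 and 9.16, against 10.13, 10.03 and 10.06 in Tconv (−0.92, SE 0.04). Satb1, a genome organiser needed for Treg development, was lower at 10.60, 10.53 and 10.64, against 11.45 in each Tconv library (−0.86, SE 0.04, adjusted p = 1.6e-11). Equal values at this height arise because quantile normalisation gives genes of the same rank the same value. Ikzf3, which encodes Aiolos of the same family as Ikaros, was higher (0.74, SE 0.05), as were its relatives Ikzf2 and, named after its value was seen, Ikzf4 (2.58, SE 0.06). Myb had a level of 7.55, 7.50 and 7.62 in CD73+ newly generated Treg and 5.85, 5.84 and 5.94 in Tconv (1.68, SE 0.05, adjusted p = 9.4e-14), and Gata3, the CD4 lineage and Th2 factor, was higher by 0.74 (SE 0.05). Genes left from the double-positive stage gave 1 member higher, 6 lower and 10 not past the threshold of 17 tested members of 19, with a median log2 fold change of −0.51. No member was higher without CD73+ newly generated Treg library A or B or without Tconv library A or D.

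Cell cycle genes were the most uniformly lower list. Of 28 members, all tested, 25 were lower, 3 did not pass and none was higher; 16 were lower by a log2 fold change of at least 1, and the median was −1.28. Top2a, the topoisomerase of dividing cells (chromosome 11, 98992943 to 99024189, minus strand), had a level of 5.13, 5.77 and 5.10 in CD73+ newly generated Treg and 7.28, 7.61 and 7.38 in Tconv, 4.26-fold lower in the Treg (log2 fold change of −2.09, SE 0.21, adjusted p = 4.7e-07). Stmn1, a microtubule regulator high in dividing thymocytes, had a level of 4.78, 5.08 and 4.63 in CD73+ newly generated Treg and 6.75, 6.83 and 6.69 in Tconv (−1.93, SE 0.11, adjusted p = 4.1e-10). Tyms, which makes thymidylate for DNA synthesis, was lower by a smaller amount (−1.13, SE 0.13). For these 3 genes library B was the highest of its group among both CD73+ newly generated Treg and Tconv. Mki67, the proliferation marker Ki-67, named after its values were seen, had a level of 6.04, 6.52 and 5.77 in CD73+ newly generated Treg and 7.66, 8.03 and 7.94 in Tconv (−1.77, SE 0.22). The replication helicase gene Mcm6 (−0.19, SE 0.09), Gins2 (−0.63, SE 0.27) and the thymidine kinase gene Tk1 (0.19, SE 0.15) did not pass. Mcm6 passed without CD73+ newly generated Treg library B (−0.29, adjusted p = 0.011) and with the replicate letters as a block (−0.19, adjusted p = 0.034). Gins2 passed with quantile normalisation over the 6 libraries compared (−0.67, adjusted p = 0.021), with only these groups in the fit (−0.63, 0.024) and with an offset of 1 CPM (−0.48, 0.035).

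**Figure D4:**
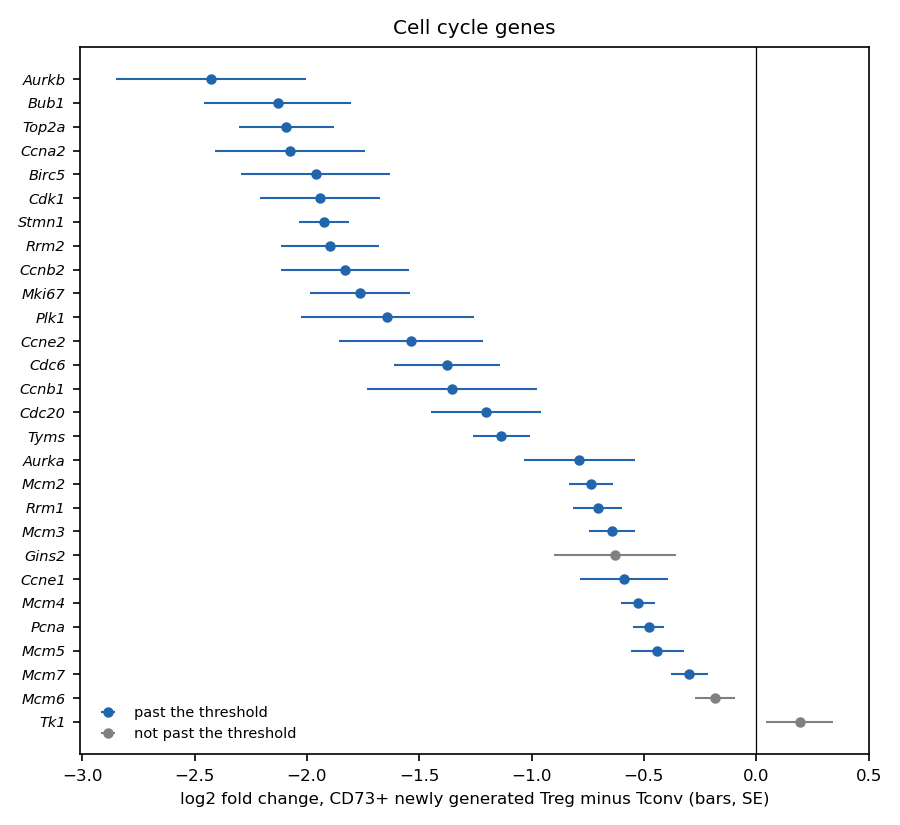
Log2 fold change of each cell cycle gene, CD73+ newly generated Treg minus newly generated Tconv, with SE bars (3 libraries each, limma); grey points did not pass an adjusted p of 0.05. Of 28 genes 25 passed, all below 0, from −0.30 for Mcm7 to −2.43 for Aurkb.

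The promoters of Top2a, of Cdk1, the kinase that starts mitosis, and of Ccnb2, a mitotic cyclin, are printed because these genes were among those lower in the Treg and hold several CCAAT boxes, the motif bound by NF-Y that is known from mitotic genes. Cdk1 had a level of 0.98, 1.38 and 0.97 in CD73+ newly generated Treg and 2.85, 3.34 and 2.97 in Tconv, and Ccnb2 had 0.85, 1.35 and 0.92 against 2.88, 2.82 and 2.93 in Tconv, with log2 fold changes of −1.94 (SE 0.27) and −1.83 (SE 0.28). Cdk1, Ccnb2 and the motif were chosen after values were seen. The sequences are from RefSeq on GRCm38.p6 and give the 250 bases before the first listed start of each gene, 5′ to 3′ on the gene's strand, and the capitals mark CCAAT or, for the other strand, ATTGG. All lie on the minus strand, Top2a at chr11:99024190-99024439, Cdk1 at chr10:69352913-69353162 and Ccnb2 at chr9:70421555-70421804.
Top2a: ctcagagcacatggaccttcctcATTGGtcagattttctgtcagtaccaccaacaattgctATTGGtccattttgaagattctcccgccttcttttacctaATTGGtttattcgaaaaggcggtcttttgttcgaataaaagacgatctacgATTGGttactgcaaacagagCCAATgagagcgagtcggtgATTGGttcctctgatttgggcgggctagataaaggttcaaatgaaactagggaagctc
Cdk1: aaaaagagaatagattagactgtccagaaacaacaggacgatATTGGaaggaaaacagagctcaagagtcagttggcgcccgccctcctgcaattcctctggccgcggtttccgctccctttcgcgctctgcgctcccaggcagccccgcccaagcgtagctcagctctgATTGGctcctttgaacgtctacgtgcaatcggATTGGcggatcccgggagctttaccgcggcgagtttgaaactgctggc
Ccnb2: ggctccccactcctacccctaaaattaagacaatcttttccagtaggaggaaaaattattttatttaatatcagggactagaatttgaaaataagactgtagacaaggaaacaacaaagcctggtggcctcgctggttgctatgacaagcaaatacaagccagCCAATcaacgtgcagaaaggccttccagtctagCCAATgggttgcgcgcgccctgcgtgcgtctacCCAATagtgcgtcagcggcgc
CCAAT was found on either strand in 17 of 22 cell cycle genes that matched a promoter (77.3%) and in 9314 of 27025 promoters of the same length (34.5%). Such a match is a sequence description and no evidence of binding in these cells.

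BCL2 family genes, which decide between survival and death, were mostly higher. Of 15 tested members of 18, 9 were higher, 1 lower and 5 did not pass, with a median log2 fold change of 0.40. They included protective and death-promoting members alike. Bcl2l1, which encodes the survival protein BCL-XL, had a level of 6.11, 6.23 and 6.20 in CD73+ newly generated Treg and 5.23, 5.28 and 5.25 in Tconv (log2 fold change of 0.93, SE 0.08, adjusted p = 4.5e-08). Bcl2a1b, a survival gene of a duplicated family whose copies may share reads, was higher by 1.61 (SE 0.15). Pmaip1, which encodes the death-promoting protein NOXA, had a level of 3.24, 3.22 and 3.16 in CD73+ newly generated Treg and 1.59, 0.53 and 1.29 in Tconv (2.07, SE 0.22, adjusted p = 1.0e-06). Bmf, another death-promoting gene, was lower (−0.73, SE 0.23, adjusted p = 0.016), a call that rested on CD73+ newly generated Treg library B (−0.47, adjusted p = 0.095 without it) and on Tconv library B (−0.63, adjusted p = 0.065 without it).

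Purinergic genes, the pathway of CD73 itself, were higher in 8, lower in 6 and not past the threshold in 5 of 19 tested members of 22, with a median log2 fold change of 0.10. Nt5e was set by the gate. P2rx7, an ATP-gated channel, had a level of 5.84, 6.12 and 5.92 in CD73+ newly generated Treg and 3.94, 4.12 and 4.0 in Tconv (log2 fold change of 1.94, SE 0.09, adjusted p = 1.1e-11), and P2ry10, a lysophospholipid receptor, was higher by 1.41 (SE 0.08). Entpd1, the CD39 enzyme that supplies the substrate of CD73 and is named here after its values were seen, had a level of 3.33, 3.41 and 2.99 in CD73+ newly generated Treg and −0.85, −0.74 and 0.30 in Tconv (3.67, SE 0.25). Entpd5, an enzyme of the endoplasmic reticulum in the same family, was lower (−1.28, SE 0.09), and the cyclic AMP phosphodiesterase genes Pde3b, Pde4b (−0.40, SE 0.06) and, named after its value was seen, Pde4d (−0.31, SE 0.05) were lower.

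Glycolytic genes differed in direction: of 22 members, all tested, 5 were higher, 10 lower and 7 did not pass, and the median log2 fold change was 0.02. Slc16a3, a lactate exporter gene, had a level of 3.98, 3.90 and 3.94 in CD73+ newly generated Treg and 0.91, 0.78 and 1.03 in Tconv (log2 fold change of 3.03, SE 0.14, adjusted p = 1.4e-11). The enolase genes differed among themselves. Eno3, the muscle isoform, was higher (2.12, SE 0.13), and the far more abundant Eno1 was lower, at 7.70, 7.87 and 7.66 in CD73+ newly generated Treg and 8.52, 8.47 and 8.51 in Tconv (−0.75, SE 0.06). The glucose transporter gene Slc2a3 was higher (0.85, SE 0.09), and Pdk1 (−1.07, SE 0.06), which restrains pyruvate oxidation, and Pkm (−0.62, SE 0.05), a pyruvate kinase gene, were lower. Of 23 tested sterol synthesis genes of 24, 4 were higher, 2 lower and 17 did not pass, with Srebf2, the sterol master regulator, higher by 0.56 (SE 0.06). The count of higher sterol genes was 2 without CD73+ newly generated Treg library B, and that of lower ones was 1 without library A or D of either group.

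Interferon response genes gave 9 higher, 6 lower and 12 not past the threshold of 27 tested members of 28, with a median log2 fold change of 0.13. Oas2, an antiviral oligoadenylate synthetase gene, was the exception in size, at 3.30, 3.59 and 3.70 in CD73+ newly generated Treg and 5.75, 5.70 and 5.77 in Tconv (log2 fold change of −2.21, SE 0.13, adjusted p = 3.5e-10). Ifi27l2a was higher by 0.84 (SE 0.07). Immediate early and heat shock genes, which also move with tissue handling, gave 5 higher, 6 lower and 10 not past the threshold of 21 tested members of 23, but 1 higher without CD73+ newly generated Treg library D or without Tconv library B, and 2 lower without CD73+ newly generated Treg library A or without Tconv library D. In both groups library B had the lowest Jun: 7.97, 7.45 and 8.46 in CD73+ newly generated Treg and 6.59, 5.85 and 7.70 in Tconv (log2 fold change of 1.25, SE 0.38, adjusted p = 0.012; 0.82 and adjusted p = 0.077 without Tconv library B; 1.0 and adjusted p = 0.067 without CD73+ newly generated Treg library D).

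Effector Treg genes, which mark activated and tissue-seeking Treg, were higher in 14, lower in 4 and not past the threshold in 6 of 24 tested members of 27, with a median log2 fold change of 0.92. Klrg1, Il10 and Pparg, the remaining members, have values for tdTomato- Treg and Tconv but none for CD73+ newly generated Treg. The lower members named by p were Ccr4, Icos and Glrx, a glutaredoxin gene (−0.61, SE 0.16, adjusted p = 0.0056). Calcium-binding and galectin genes, also high in effector T cells, gave 5 higher, 7 lower and 7 not past the threshold of 19 tested members of 20. Ahnak, a giant scaffold protein gene, had a level of 8.95, 8.94 and 8.89 in CD73+ newly generated Treg and 6.84, 6.60 and 6.77 in Tconv (2.19, SE 0.07, adjusted p = 6.8e-14). Anxa2 (0.85, SE 0.11) and Anxa4 (1.30, SE 0.24) were higher and Anxa6 (−0.72, SE 0.04), Anxa5 (−0.57, SE 0.10) and Vim (−0.36, SE 0.05) lower, so annexin genes differed in direction among themselves.

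Whether a difference from Tconv was the same in other Treg was tested by comparing CD73+ newly generated Treg with them directly, since the Tconv cancel. Against CD73- newly generated Treg, 249 of 11139 genes passed (2.24%), 193 higher (1.73%) and 56 lower (0.503%). This count was 97 without CD73+ library A, 79 without CD73+ library B, 134 without CD73- library A and 118 without CD73- library D. Itgae was higher in CD73+ newly generated Treg than in their CD73- counterparts, with means of 4.51 and 2.72 (log2 fold change of 1.79, adjusted p = 2.1e-08), as were Ahnak (1.04, adjusted p = 1.0e-07), Il7r (0.73, adjusted p = 0.0013) and Myo1e (0.61, adjusted p = 0.0022). Nrp1 (0.66, adjusted p = 0.0033), Coro2a (0.64, 0.0082), Igfbp4 (0.52, 0.0048), Lrrc32 (0.48, 0.015) and Itgb8 (0.82, 0.028) were higher too. Nrp1, Coro2a, Lrrc32 and Itgb8 did not pass without the intensity trend. Lrrc32 also lost its call without CD73+ library A or B or CD73- library D. Itgb8 lost its call without CD73+ library A, B or D and without CD73- library A or D. Of 20 Treg signature genes, Nt5e by the gate among them, 7 were higher and 0 lower, and of 24 effector Treg genes 8 and 0. Itgb3 (−0.39, adjusted p = 0.0019) and Satb1 (−0.31, adjusted p = 0.00067) were lower. Ccr6, Il2ra, Rel and Tcf7 did not pass, with log2 fold changes between the newly generated Treg of 0.62 (adjusted p = 0.15), 0.20 (0.28), −0.03 (0.78) and −0.12 (0.22). Ccr6 passed with quantile normalisation over the 6 libraries compared (0.62, adjusted p = 0.015), with only these groups in the fit (0.62, 0.015) and with an offset of 1 CPM (0.59, 0.014).

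Against tdTomato- Treg, 2278 of 11139 genes passed (20.5%), 1208 higher (10.8%) and 1070 lower (9.61%) in CD73+ newly generated Treg, again across the deposited tables. Of the genes past the threshold 53% were higher, but 39.8% on the deposited values and 43.2% on back-calculated counts. The effector Treg genes stood on the lower side, with a median log2 fold change of −1.78. In CD73+ newly generated Treg, 17 of 24 tested members were lower and 2, Tnfrsf9 (0.30) and Gata3 (0.23), were higher. Treg signature genes were also more often lower, 12 of 20, with 1 higher and a median log2 fold change of −0.48. Itgae had a mean level of 4.51 in CD73+ newly generated Treg, 7.80 in tdTomato- Treg and 1.03 in Tconv, so that it lay between them (−3.29 against tdTomato- Treg, adjusted p = 2.4e-12). Nrp1 (−1.60), Ccr6 (−1.68), Cxcr5 (−2.72) and Ahnak (−2.10) were likewise higher in CD73+ newly generated Treg than in Tconv and lower than in tdTomato- Treg. The cell cycle genes did not take this course: 2 of 28, Stmn1 (0.53) and Mcm7 (0.28), were higher and 2, Tk1 (−1.08) and Tyms (−0.39), lower than in tdTomato- Treg, with a median log2 fold change of −0.04. The call of Tyms was lost without any 1 of the 6 libraries (adjusted p from 0.056 to 0.12), with an offset of 1 CPM (0.054) and with no filter (0.052).

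**Figure D5:**
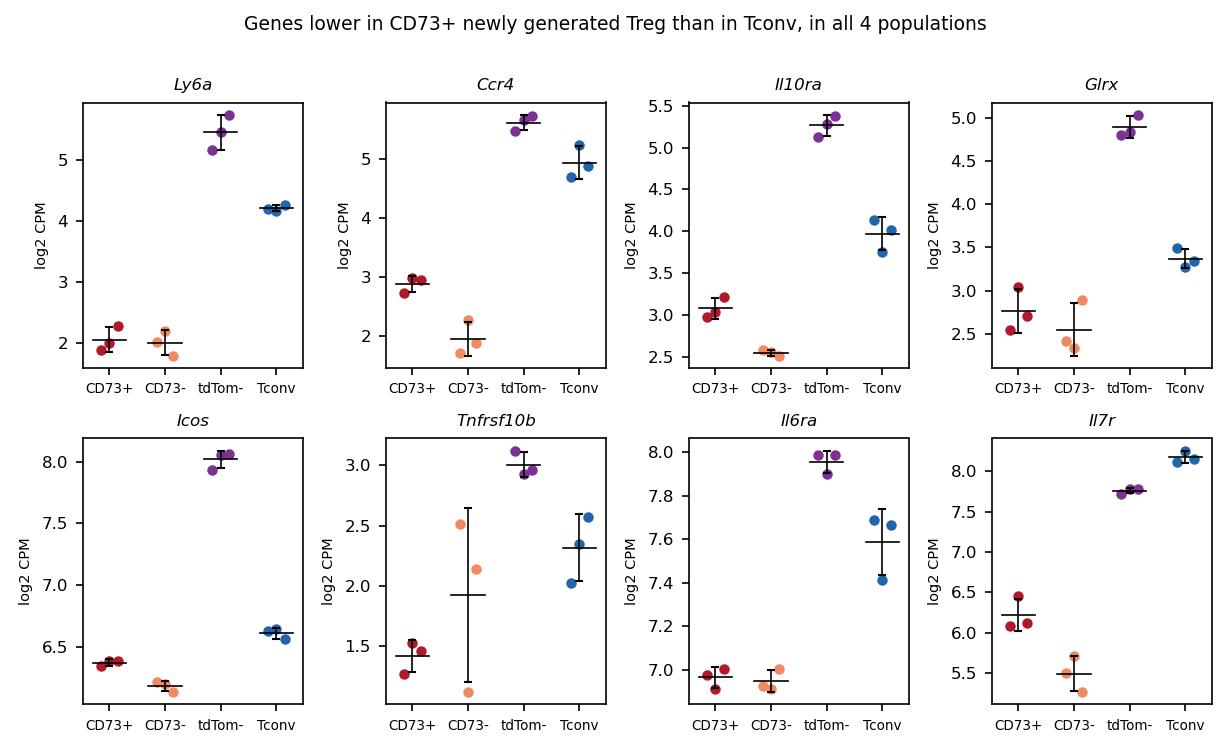
Log2 CPM per library (points) with mean and SD (n = 3) in CD73+ newly generated Treg, CD73- newly generated Treg, tdTomato- Treg and newly generated Tconv, for 8 genes that were lower in CD73+ newly generated Treg than in Tconv; each y axis has its own range. Ly6a, Ccr4, Il10ra, Glrx, Icos, Tnfrsf10b and Il6ra had higher means in tdTomato- Treg than in Tconv, and Il7r did not.

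Markers of other cell types were measured in the same libraries. The 9 measured of 10 CD8 lineage genes had a summed level of 39.1 to 46.6 CPM in CD73+ newly generated Treg and 68.7 to 72.0 CPM in Tconv. In tdTomato- Treg the sum was 70.4 to 71.7 CPM. Against Tconv, 4 genes were higher and 3 lower in CD73+ newly generated Treg. Runx3, the CD8 lineage factor, was lower, with a mean level of 3.41 against 5.53 in Tconv (−2.11, SE 0.13). Nkg7, a cytotoxic granule gene, was higher (3.45, SE 0.25). Of 12 markers for NK and innate-like T cells, 8 were measured and summed to 3.50 to 5.61 CPM in CD73+ newly generated Treg and 12.1 to 14.7 CPM in Tconv, and 3 of 4 tested were lower, but 1 without Tconv library B or with a stricter filter. The 7 measured of 10 B cell genes summed to 3.89 to 5.59 CPM in CD73+ newly generated Treg and 3.51 to 5.08 CPM in Tconv, with none of 4 past the threshold. The myeloid and dendritic cell list (15 of 20 measured) summed to 48.1 to 54.6 CPM in CD73+ newly generated Treg and 40.5 to 43.9 CPM in Tconv, and 1 of 10 tested was higher and 1 lower. Epithelial markers (6 of 10 measured) summed to 79.3 to 92.8 CPM in CD73+ newly generated Treg and 91.0 to 92.8 CPM in Tconv, and erythroid markers (7 of 8 measured) to 91.2 to 114 CPM in CD73+ newly generated Treg and 72.9 to 113 CPM in Tconv. Stromal and endothelial markers (3 of 10 measured), nearly all of it Pecam1, summed to 199.6 to 229.7 CPM in CD73+ newly generated Treg and 167 to 178 CPM in Tconv. Of the CD8 chains, Cd8a had at most 29 counts in a library of CD73+ newly generated Treg and 59 in one of Tconv. Cd8b1 had a mean level of 2.98 in CD73+ newly generated Treg and 3.88 in Tconv (−0.90, SE 0.16, adjusted p = 0.00016). Whether CD8 or innate-like cells were present, and what part they would have in the lower naive, TCR and cell cycle genes, was not tested.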

How the data were processed

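Per the labels' protocols, RNA of sorted thymic CD4+ cells was isolated with TRIzol and sequenced from KAPA RNA HyperPrep libraries. STAR, RSEM, limma and mm10 are named in the submitters' processing notes, without versions. The authors deposited log2 CPM per gene and library, in a table of the newly generated Treg and a table of tdTomato- Treg and Tconv. The offset of 0.5 count and the depth were read from the lowest value of each library, and 92.9% of 21348 back-calculated counts from 1 to 20 lay within 0.1 of a whole number. The authors' deposited log2 fold changes and p-values were not used.

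The 12 libraries were quantile-normalised together and tested with limma 3.58.1 in R 4.3.3. The fit had 4 group means, an intensity trend, two-sided tests and Benjamini-Hochberg adjustment over all 11139 genes tested. It was run on simulated data as well. These held few changed genes and no separately scaled tables, so they cannot test the joint normalisation. The fit to the 12 libraries gave 3 comparisons. The members and the 31 gene lists were chosen with earlier results of these data known. Genes named are the sort genes, Itgae, the 10 highest and 10 lowest abundant non-overlapping fold changes, and up to 3 members per list and direction by p-value, plus members not past the threshold where a list has at most 3; others are marked, and a few genes under this rule are not reported here. The ranking by fold left out predicted genes, pseudogenes, and T cell receptor and immunoglobulin segments. Alternatives were the deposited values, median centring, back-calculated counts, other filters and offsets, the letters as a block, and leaving out libraries. Coordinates are from GENCODE M21 (GRCm38), which held 12294 of 12410 gene IDs. Depth and 3 libraries a group limit the precision.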

Additional observations from a re-analysis of the deposited data

Results flagged for a closer look

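A set of 7 named genes was lower in CD73+ newly generated Treg than in Tconv while tdTomato- Treg lay above the same Tconv. These genes were picked for lying on opposite sides of Tconv, so the direction of the difference between CD73+ newly generated Treg and tdTomato- Treg follows from the choice and is given as a description. Its log2 fold change was −3.40 for Ly6a (Sca-1), −2.72 for Ccr4, a chemokine receptor of the medulla and of effector Treg, and −2.19 for Il10ra, an interleukin-10 receptor chain. It was −2.13 for Glrx, −1.65 for Icos, −1.59 for Tnfrsf10b and −0.99 for Il6ra. Icos had a mean level of 6.37 ± 0.03 (n = 3, SD) in CD73+ newly generated Treg, 8.02 ± 0.07 in tdTomato- Treg and 6.61 ± 0.04 in Tconv. CD73- newly generated Treg also had means below Tconv for all 7 genes, from −0.39 for Tnfrsf10b to −2.97 for Ccr4 on the log2 scale. Both differences from Tconv use the same Tconv libraries, and the 2 Treg groups come from different deposited tables.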

How the results depend on the processing

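The count of genes between CD73+ newly generated Treg and Tconv, 5015, stayed within 1.5 times of itself under every alternative run, from 3719 without the libraries of letter D to 5408 with the replicate block, and was 4414 to 4663 with 1 library left out. Same-lettered libraries of these groups correlated at 0.055, 0.166 and 0.148 in their deviations. Each library correlated best with its own letter, a hint of pairing from the data. The letters were not taken as pairs in the main fit because the labels state no such design. Under the block Klf2 (adjusted p = 6.2e-06), Ms4a4b (0.028), Cd2 (0.018), Ccnd2 (0.013) and Mcm6 (0.034) passed, and 9 immediate early and heat shock genes were higher. Without letter D the higher chemokine receptor and interferon genes numbered 5 each, and the lower innate-like markers 1. For single named genes in this comparison, counted over genes and alternatives, 3 values turned direction, all for Ptprc, at −0.03, −0.02 and −0.00895 on the settings given above; 42 lost and 18 gained a call, and 2553 stayed. Against CD73- newly generated Treg the count of 249 was 144 with quantile normalisation over the 6 libraries compared, 140 with only those groups in the fit, 77 without the intensity trend, 571 with the replicate block and 41 without letter D, and 79 to 280 with 1 library left out; 77.5% of calls were higher, or 58.8% with median centring. Against tdTomato- Treg the count of 2278 was 1172 without letter D and 1658 to 1962 with 1 library left out. The cause of these changes was not tested, except that fewer libraries enter where some are left out. Genes near 0 log2 CPM rest on few counts, and their fold changes shrink with an offset of 1 CPM.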
